A study of Mus musculus with 32 samples.

Results

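The 10 genes studied are genes of activated, disease-associated and phagocytic microglia, followed across the 4 groups of the series, and are 10 of the 55415 gene features counted in each library. They were Trem2, Tyrobp, Fcer1g, Cd52, Lyz2, Cd68, Ctss, Cst7, Apoe and Fth1, and 9 of them passed the filter on low counts. All are known genes of that microglial state, chosen with earlier results of these data known. Every library came from the striatum of 1 separately numbered mouse, at 12 months of age, with 8 libraries in each group and 32 in all. The first group was YAC128 mice given AON12.1, the antisense oligonucleotide that the series title directs at the caspase-6 cleavage site of HTT. The second was YAC128 mice given a scrambled AON, and the third YAC128 mice given aCSF (artificial cerebrospinal fluid) alone. The fourth was WT littermates given aCSF. YAC128 mice carry a human HTT gene with an expanded repeat on a yeast artificial chromosome, beside their own mouse Htt, on a B6 background. All 4 groups, controls included, had a cannula fixed in the lateral ventricle under isoflurane at about 6 months, and 3 injections of 10 µL in all, the later ones 2 and 4 weeks after surgery. An injection held 500 µg of oligonucleotide in both AON groups and none in both aCSF groups.

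Microglia are the resident macrophages of the brain. Near plaques, dying cells or myelin debris they lower their homeostatic genes and raise a shared set that includes Apoe, Tyrobp, Ctss, Cst7, Fth1, Lyz2 and Cd52. Part of this change depends on TREM2, a surface receptor for lipids and lipoproteins, whose signal passes through the adaptor TYROBP. The raised set serves uptake and breakdown: lysozyme, lysosomal proteases and their inhibitors, and proteins that handle lipid and iron. Apoe and Fth1 are also made by other cells, Apoe mainly by astrocytes, so in whole striatum their counts are not microglial counts alone.

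To show what lies upstream of some of these genes, the bases before the start site were taken from RefSeq, in build GRCm38.p6. There 8 of the 10 genes had an entry, and Tyrobp and Cd52 had none. The counts were made on GRCm39, so these windows serve as sequence context only. PU.1, the ETS-family factor that macrophages depend on, binds a purine-rich core, and capitals mark each GGAAGT, or ACTTCC where it lies on the opposite strand. Lyz2 and Cst7 are shown as lysosomal genes with a low count in both aCSF groups. The Lyz2 stretch is chr10:117282273-117282522 on the minus strand, and the Cst7 stretch is chr2:150570165-150570414 on the plus strand, each 250 bases long and printed 5′ to 3′ on the gene's own strand.
Lyz2: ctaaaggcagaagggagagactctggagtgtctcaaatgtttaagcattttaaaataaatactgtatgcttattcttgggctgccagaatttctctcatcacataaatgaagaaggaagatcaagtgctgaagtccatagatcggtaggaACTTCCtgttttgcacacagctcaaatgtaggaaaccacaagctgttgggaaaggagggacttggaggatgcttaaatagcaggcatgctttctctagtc
Cst7: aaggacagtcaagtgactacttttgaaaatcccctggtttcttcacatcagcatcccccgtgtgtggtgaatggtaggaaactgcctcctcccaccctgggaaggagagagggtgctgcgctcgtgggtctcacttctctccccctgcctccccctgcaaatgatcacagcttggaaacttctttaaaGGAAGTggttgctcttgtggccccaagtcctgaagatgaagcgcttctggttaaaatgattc
The core starts 100 bases before the start site in Lyz2, on the opposite strand, and 62 bases before it in Cst7, on the gene's strand. The 8 genes had 11 windows of 300 bases, from 250 before to 50 after a start. Of these 11 windows 4 had the core, those of Lyz2, Cst7, Ctss and Cd68. On either strand it is in 23.8% of all 32851 such windows, so its presence is a description and does not mark these genes out.

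Total gene counts ran from 658934 to 1419313 per library. By group they averaged 957545 ± 136214 with AON12.1, 979455 ± 204087 with the scrambled AON, 1005390 ± 198567 in YAC128 aCSF and 893248 ± 170533 in WT (SD, n = 8 each). Markers of striatal projection neurons, 12 of 12 of them tested, summed to between 3276 and 11072 CPM per library, so the labelled tissue was present in each. Mouse Htt averaged 102 ± 15.4 CPM with AON12.1, 101 ± 15.7 with the scrambled AON, 105 ± 17.5 in YAC128 aCSF and 89.6 ± 17.4 in WT (SD, n = 8 each). These are counts of the mouse gene and do not give the level of the human HTT transgene. Gene counts from the 3′ end cannot show a change in which exons a transcript holds. One YAC128 aCSF library, replicate 4, stood apart with 4006 CPM of choroid plexus markers, against at most 331 CPM in the others of its group. One WT library, replicate 1, had 30.2% of its counts in no feature, against at most 19.2% in the others. Calls of the 10 genes that change without these libraries are given with and without them.

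With AON12.1 against aCSF in YAC128 mice, 3 of the 10 genes rose: Lyz2 2.44-fold, Tyrobp 1.72-fold and Cd52 2.93-fold. Of these, Cd52 passed the filter on low counts only through its AON12.1 libraries. Over all genes 0.309% were called in this comparison (33 of 10679 tested), and 0.215% were called higher. That count was 73 without YAC128 aCSF replicate 8, 61 without AON12.1 replicate 7 and 94 in DESeq2. All 9 tested genes had a higher mean with AON12.1, with log2 fold changes from 0.06 for Apoe to 1.55 for Cd52 and a median of 0.52, where the median of all tested genes was 0.00 and 50% of them had a value above 0. With the scrambled AON against the same aCSF libraries, 2 genes rose, Lyz2 2.42-fold and Tyrobp 1.54-fold, where 0.0843% of tested genes were called (9 of 10679), and the same 0.0843% were called higher. The median over the 9 genes was 0.46, and 9 had a value above 0, as 49.6% of tested genes did. These comparisons share their aCSF libraries, so their likeness is no independent support. Because the 10 genes were chosen with earlier results of these data known, their medians and the 9 values above 0 are descriptions only. A gene was called where edgeR's quasi-likelihood test gave a Benjamini-Hochberg adjusted p under 0.05 over all tested genes. In whole tissue, more cells of a type and more RNA per cell cannot be told apart. Beside these genes, log2 fold changes of striatal projection neuron markers were above 0 for 12 of 12 with AON12.1 against aCSF (median 0.48) and 10 of 12 with the scrambled AON against aCSF (median 0.14). Of the 12, 0 were called by edgeR or voom in either comparison, and DESeq2 called 3 with AON12.1. An unadjusted edgeR p under 0.05 was seen for 9 with AON12.1 and 0 with the scrambled AON. Their part in the levels of the 10 genes was not tested.

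**Figure D1:**
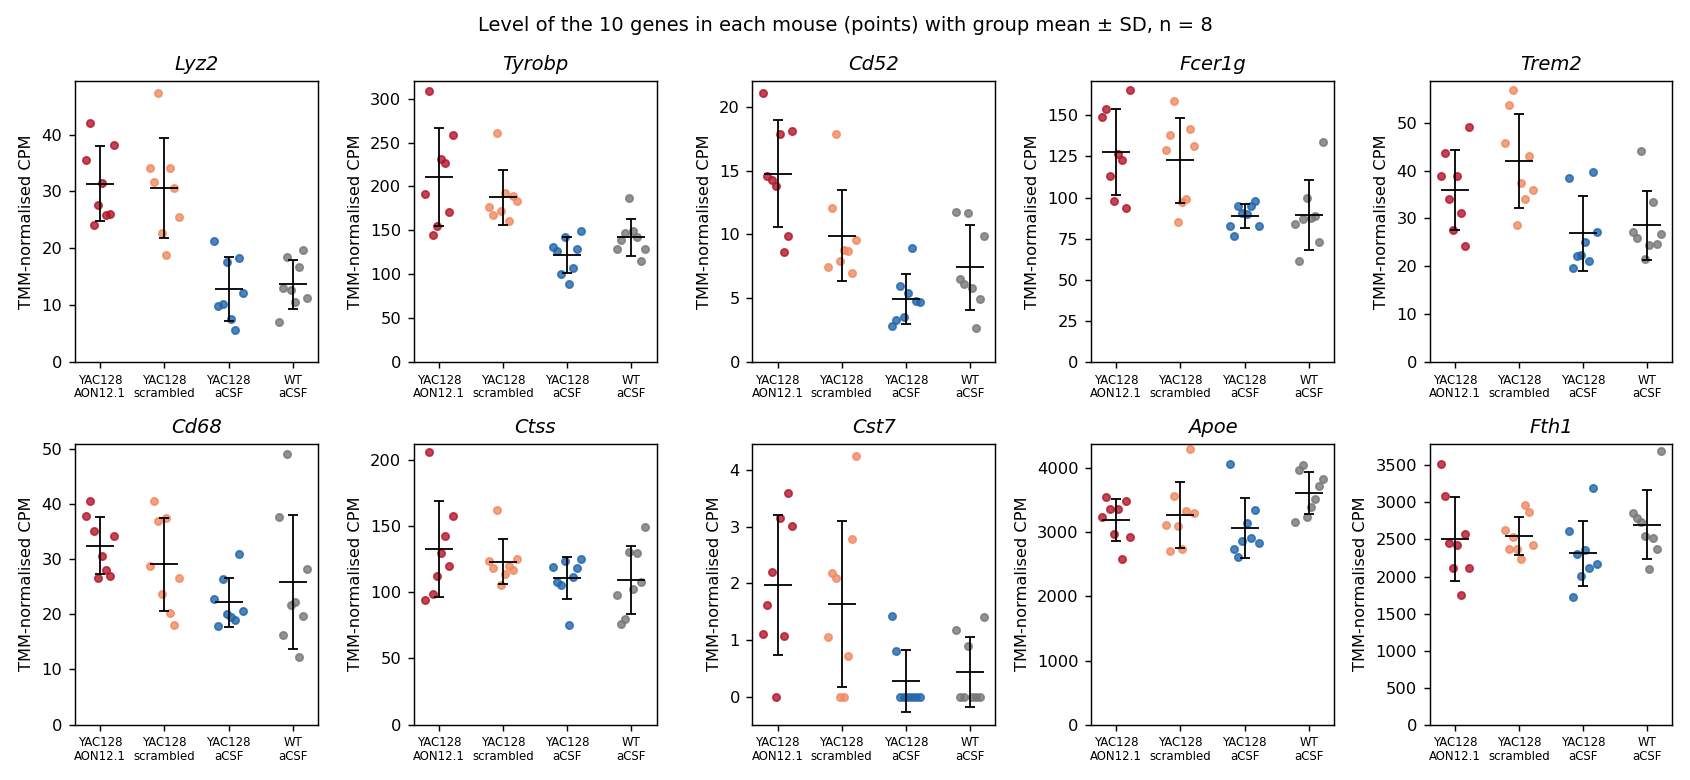
TMM-normalised CPM of each of the 10 genes in each library (points), by group, with the group mean ± SD (n = 8). The 8 AON12.1 points of Lyz2 lie between 24.2 and 42.1 CPM and above every point of the YAC128 aCSF and WT panels, while the Apoe and Fth1 groups overlap throughout.

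Lyz2 (ENSMUSG00000069516, chromosome 10) encodes the lysozyme of macrophages and microglia, an enzyme that cleaves bacterial cell walls. Its lowest, median and highest levels were 24.2, 29.6 and 42.1 CPM with AON12.1. They were 18.7, 31.2 and 47.3 CPM with the scrambled AON, 5.56, 11.2 and 21.3 CPM in YAC128 aCSF and 7.06, 12.8 and 19.7 CPM in WT. The AON12.1 libraries lay wholly above both aCSF groups, and 7 of 8 scrambled libraries lay above the highest YAC128 aCSF library. Groups that do not overlap in this direction were seen for 0.122% of tested genes with AON12.1 against aCSF and 0.0936% with AON12.1 against WT. Against YAC128 aCSF the log2 fold change was 1.29 ± 0.21 with AON12.1 (SE; adjusted p = 0.00118) and 1.28 ± 0.21 with the scrambled AON (adjusted p = 0.00222). Lyz2 stayed called in 16 of 16 fits that each left out 1 library, in either comparison. Lyz1, a near copy of Lyz2, had 1 count in all 32 libraries, and reads aligned to more than 1 place stand in a separate summary line of each file.

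Cd52 (ENSMUSG00000000682, chromosome 4) encodes a small lipid-anchored glycoprotein of the leukocyte surface. Its lowest, median and highest levels were 8.61, 14.4 and 21.1 CPM with AON12.1. Levels were 6.95, 8.72 and 17.9 CPM with the scrambled AON, 2.84, 4.73 and 8.90 CPM in YAC128 aCSF and 2.64, 6.31 and 11.8 CPM in WT. Of the AON12.1 libraries 7 of 8 lay above the highest YAC128 aCSF library, and of the scrambled ones 3 of 8 did. The log2 fold change was 1.55 ± 0.27 with AON12.1 against aCSF (adjusted p = 0.00137) and 0.99 ± 0.28 with the scrambled AON against aCSF (adjusted p = 0.242), the last not called. This gene passed the filter with 10 libraries at or above the 10.7 CPM it needs, 6 of them AON12.1, 2 scrambled, 2 WT and 0 YAC128 aCSF. With 8 libraries a group, the filter asks for 8 such libraries. Cd52 was thus tested only through AON12.1, the group where it is high, so its call is a description only. Counts per library ran from 2 to 19. The gene overlaps Crybg2 on the opposite strand in the GRCm38 annotation, which had 60 counts in all libraries against 276 for Cd52, and the sources used here do not say whether strand was used in counting.

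**Figure D2:**
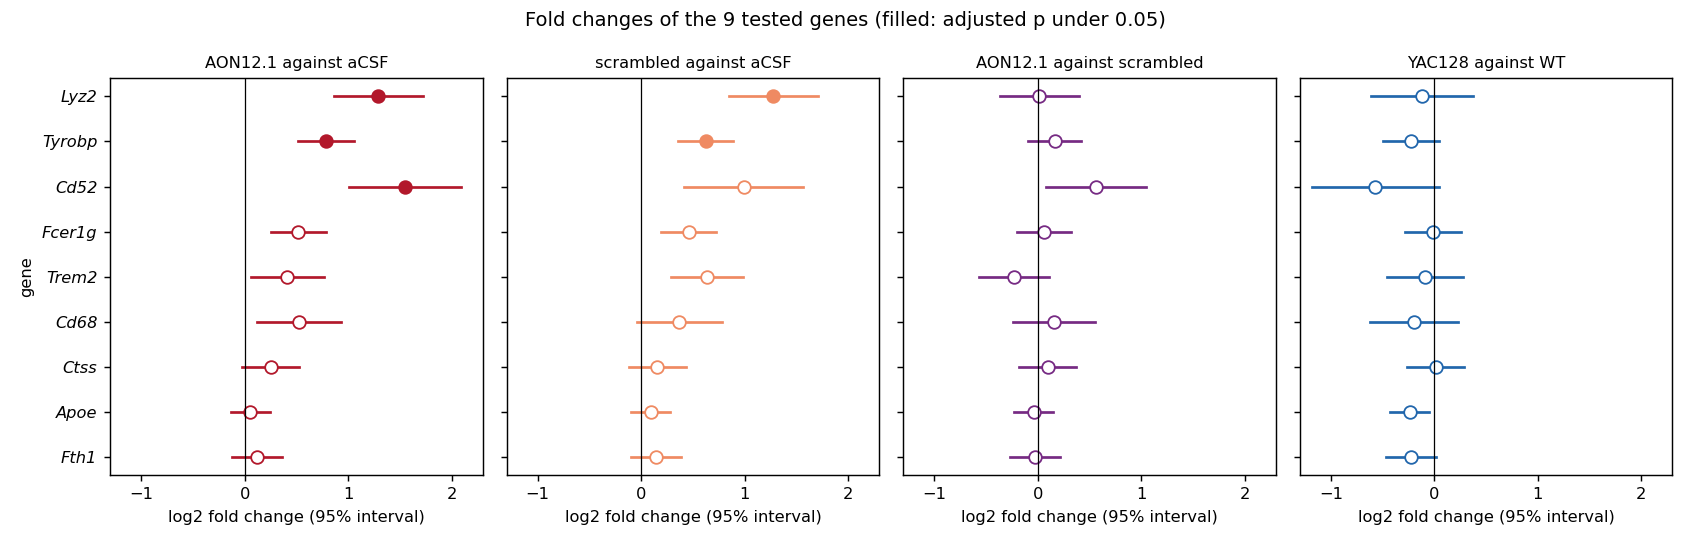
Log2 fold changes of the 9 tested genes with 95% intervals in 4 comparisons from a single edgeR fit, filled where the adjusted p was under 0.05. Lyz2, Tyrobp and Cd52 are filled for AON12.1 against aCSF, Lyz2 and Tyrobp for scrambled against aCSF, and none for AON12.1 against scrambled or YAC128 against WT.

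Among the receptors and adaptors, Tyrobp (ENSMUSG00000030579, chromosome 7) encodes DAP12, the transmembrane adaptor that carries the activation motif for TREM2. It stood at 145, 209 and 309 CPM (lowest, median, highest) under AON12.1 and 161, 180 and 261 CPM under the scrambled AON. It stood at 89.1, 128 and 149 CPM in YAC128 aCSF and 115, 141 and 186 CPM in WT. All 8 scrambled libraries exceeded the highest YAC128 aCSF library, a separation seen for 0.0468% of tested genes in this comparison, as did 7 of 8 AON12.1 libraries. Against YAC128 aCSF the log2 fold change was 0.79 ± 0.13 with AON12.1 (adjusted p = 0.00122) and 0.62 ± 0.13 with the scrambled AON (adjusted p = 0.0443). The first call held in 16 of 16 fits without 1 library. The second held in 3 of 16, those without scrambled replicate 4, scrambled replicate 6 or YAC128 aCSF replicate 8, while the log2 fold change ran from 0.54 to 0.67 over the 16. Of 11 alternative fits 5 kept this second call. It was lost with the percentage of counts outside any feature added to the fit (0.55, adjusted p = 0.0928) and without the pair of libraries that stood apart (0.65, adjusted p = 0.0570). A stricter filter on low counts (0.61, adjusted p = 0.0526) and the series of animal numbers as covariate (0.64, adjusted p = 0.0547) also ended it. So did fitting either series of animal numbers alone, with values given below.

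Trem2 (ENSMUSG00000023992, chromosome 17), the receptor that signals through TYROBP, did not pass edgeR's test in any comparison. It stood at 24.2, 36.5 and 49.2 CPM under AON12.1 and 28.6, 40.3 and 56.8 CPM under the scrambled AON, against 19.5, 23.6 and 39.7 CPM in YAC128 aCSF and 21.6, 26.3 and 44.2 CPM in WT. The groups overlap, with 2 AON12.1 and 4 scrambled libraries above the highest YAC128 aCSF library. Its log2 fold change was 0.41 ± 0.17 with AON12.1 against aCSF (adjusted p = 0.344) and 0.64 ± 0.17 with the scrambled AON against aCSF (adjusted p = 0.240).

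Fcer1g (ENSMUSG00000058715, chromosome 1) encodes the gamma chain shared by several Fc receptors, which carries the same kind of activation motif as TYROBP. It stood at 93.4, 125 and 166 CPM under AON12.1 and 84.8, 130.1 and 159 CPM under the scrambled AON, against 76.5, 90.3 and 97.7 CPM in YAC128 aCSF and 61.6, 87.2 and 134 CPM in WT. In each AON group 6 of 8 libraries lay above the highest YAC128 aCSF library. The log2 fold change was 0.52 ± 0.13 with AON12.1 (adjusted p = 0.0729) and 0.46 ± 0.13 with the scrambled AON (adjusted p = 0.242), neither called by edgeR. DESeq2 called the first (0.52, adjusted p = 0.0201), as did edgeR without AON12.1 replicate 4 (adjusted p = 0.0415) or replicate 7 (adjusted p = 0.0307).

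In the lysosome, Cd68 (ENSMUSG00000018774, chromosome 11), a glycoprotein of the lysosomal membrane and a usual stain for phagocytic cells, stood at 26.6, 32.3 and 40.5 CPM under AON12.1 and 18.1, 27.6 and 40.5 CPM under the scrambled AON. YAC128 aCSF libraries had 17.9, 20.3 and 31.0 CPM, and WT libraries 12.3, 21.9 and 49.1 CPM, the widest spread of the 4 groups. Its log2 fold change with AON12.1 against aCSF was 0.52 ± 0.20 (adjusted p = 0.276), and with the scrambled AON 0.37 ± 0.20 (adjusted p = 0.562). Ctss (ENSMUSG00000038642, chromosome 3), the cysteine protease cathepsin S, had log2 fold changes of 0.25 ± 0.14 (adjusted p = 0.482) and 0.15 ± 0.14 (adjusted p = 0.725) in the same comparisons. Ctss groups overlapped, at 94.4 to 206 CPM with AON12.1, 106 to 162 CPM with the scrambled AON, 75.0 to 125 CPM in YAC128 aCSF and 76.2 to 149 CPM in WT. Neither gene passed edgeR's test in any comparison.

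Cst7 (ENSMUSG00000068129, chromosome 2) encodes cystatin F, an inhibitor of cysteine cathepsins in the endosomes and lysosomes of immune cells. Its 32 counts in all 32 libraries were too few for the filter, so it has no edgeR value. These were 15 counts with AON12.1, 12 with the scrambled AON, 2 in YAC128 aCSF and 3 in WT. At least 1 count was seen in 7 of 8 AON12.1 libraries and 6 of 8 scrambled libraries, against 2 of 8 YAC128 aCSF and 3 of 8 WT libraries. The groups overlap, since each had libraries at 0, and in those 14 libraries a count of 0 allows a level of up to 2.40 to 4.55 CPM (3 counts). Mean levels were 1.97 ± 1.24 CPM with AON12.1, 1.64 ± 1.47 CPM with the scrambled AON, 0.279 ± 0.542 CPM in YAC128 aCSF and 0.436 ± 0.616 CPM in WT (SD, n = 8 each). Per unit of depth, AON12.1 had 7.88 times the counts of aCSF, with an exact 95% interval from 1.83 to 70.97 for counting error only. By a two-sided exact permutation test of the mean CPM over 12870 splits, adjusted over the 6 comparisons of this gene, AON12.1 differed from YAC128 aCSF by 1.69 CPM (p = 0.00528, adjusted p = 0.0284). It differed from WT by 1.53 CPM (exact permutation p = 0.00948, adjusted p = 0.0284). The scrambled group differed from YAC128 aCSF by 1.36 CPM (exact permutation p = 0.0294, adjusted p = 0.0587) and did not pass. Since this adjustment does not run over all tested genes, these values are not on the footing of the edgeR calls.

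Apoe and Fth1, which many brain cells express, did not pass edgeR's test in any comparison of all libraries. Apoe (ENSMUSG00000002985, chromosome 7), the main lipid carrier of the brain, stood at 2590, 3296 and 3551 CPM under AON12.1 and 2702, 3209 and 4297 CPM under the scrambled AON, against 2616, 2890 and 4064 CPM in YAC128 aCSF. WT libraries had 3159, 3626 and 4043 CPM. Its log2 fold change against YAC128 aCSF was 0.06 ± 0.09 with AON12.1 (adjusted p = 0.876) and 0.09 ± 0.09 with the scrambled AON (adjusted p = 0.773). Fth1 (ENSMUSG00000024661, chromosome 19), the heavy chain of the iron store ferritin, averaged 2507 ± 568 CPM with AON12.1, 2549 ± 255 CPM with the scrambled AON, 2312 ± 440 CPM in YAC128 aCSF and 2702 ± 469 CPM in WT (SD, n = 8 each). The Fth1 groups overlapped, and the log2 fold changes against YAC128 aCSF were 0.12 ± 0.12 and 0.14 ± 0.12. Fth1 has processed copies elsewhere in the genome, whose shared reads may likewise be absent from its count. Across the 32 libraries both genes had a negative correlation, not passing after adjustment, with the percentage of counts in no feature, which averaged 23.8% with AON12.1, 22.1% with the scrambled AON, 25.7% in YAC128 aCSF and 19.5% in WT. For Apoe Pearson's r was -0.41 and Spearman's rho -0.44 (permutation p = 0.0211 and 0.0120; 0.0949 and 0.108 adjusted over the 9 genes), and r was -0.45 when the 2 libraries with the most extreme shares were left out. For Fth1 r was -0.41 and rho -0.33 (permutation p = 0.0205 and 0.0684; 0.0949 and 0.308 adjusted), and again -0.41 without those 2. Within the animals numbered from 18 and from 19 in the labels, r was -0.58 and -0.28 for Apoe and -0.62 and -0.31 for Fth1 (n = 11 and 21). Lyz2, Tyrobp and Cd52 had r of -0.16, -0.30 and 0.01 with that share (permutation p = 0.377, 0.0922 and 0.962). Within those series r was -0.65 and 0.14 for Lyz2, -0.70 and -0.06 for Tyrobp and -0.47 and 0.39 for Cd52, so the sign turned between series for Lyz2 and Cd52. Group means were not subtracted for any r with this share, so group differences enter these values.

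AON12.1 was next set against the scrambled AON, which differs from it in sequence and shares the dose and the injections. By edgeR 0 of the 9 tested genes were called, where 0.14% of tested genes were (15 of 10679), and DESeq2 and voom also called 0 of them, though DESeq2 gave Cd52 no adjusted p. Cd52 averaged 14.8 ± 4.21 CPM with AON12.1 against 9.90 ± 3.59 CPM with the scrambled AON (SD, n = 8 each). It was the only one of the 9 with an unadjusted p under 0.05, as 7.25% of tested genes had (log2 fold change 0.56 ± 0.24, adjusted p = 0.611). The AON12.1 to scrambled ratio was 1.01 for Lyz2, with a 95% interval from 0.774 to 1.32. For Tyrobp it was 1.12 (0.934 to 1.34), for Fcer1g 1.04 (0.868 to 1.25) and for Trem2 0.855 (0.677 to 1.08). Each interval holds 1 and leaves room for a difference up to its ends. Cst7 differed by 0.333 CPM (exact permutation p = 0.630).

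YAC128 mice given aCSF were set against WT mice given aCSF to show the effect of the transgene. By edgeR 0 of the 9 tested genes were called, where 0.0749% of tested genes were (8 of 10679), and 8 of the 9 had a lower value in YAC128, where 49.3% of tested genes had a higher one, with a median log2 fold change of -0.20 beside 0.00 for all tested genes. The count over all genes rose to 142 without WT replicate 1, 45 without both libraries that stood apart and 27 without YAC128 aCSF replicate 8, while 0 of the 9 were called in any of these fits. DESeq2 and voom called 0 as well, though DESeq2 gave an adjusted p only to Apoe and Fth1. Apoe averaged 3066 ± 463 CPM in YAC128 against 3612 ± 331 CPM in WT (SD, n = 8 each). It was the only one of the 9 with an unadjusted p under 0.05, as 12.5% of tested genes had (-0.24 ± 0.09, adjusted p = 0.302). Lyz2 averaged 12.8 ± 5.62 CPM in YAC128 against 13.7 ± 4.31 CPM in WT (-0.12 ± 0.24, adjusted p = 0.896). Tyrobp averaged 122 ± 21.0 CPM in YAC128 against 142 ± 21.3 CPM in WT (-0.23 ± 0.13, adjusted p = 0.486).

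Against WT, 2 of the genes rose with AON12.1, Lyz2 (1.17 ± 0.22, adjusted p = 0.00359) and Tyrobp (0.56 ± 0.13, adjusted p = 0.0275), where 0.562% of tested genes were called (60 of 10679) and 0.234% were called higher. With the scrambled AON Lyz2 rose (1.16 ± 0.22, adjusted p = 0.00520), where 0.169% were called (18 of 10679) and 0.131% called higher, and Tyrobp had 0.40 ± 0.13 (adjusted p = 0.266). The Tyrobp call against WT was lost in 6 of 16 fits without 1 library, those without AON12.1 replicate 2, 6 or 8 or WT replicate 6, 7 or 8, with values from 0.47 to 0.56. Cd52 had 0.98 ± 0.26 with AON12.1 against WT (adjusted p = 0.0609). Without the pair of libraries that stood apart it was called (1.10, adjusted p = 0.0402), as it was without WT replicate 1 or 4 or AON12.1 replicate 6 or 7 alone (1.05 to 1.14). For Lyz2 the order of group means was AON12.1, scrambled, WT and YAC128 aCSF, with no difference past the test between the first pair or between the last pair.

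The animal numbers in the labels start with 18 or 19, and the groups hold unequal numbers of each: 2 and 6 with AON12.1, 2 and 6 with the scrambled AON, 4 and 4 in YAC128 aCSF and 3 and 5 in WT. What the series of numbers stands for is not stated. In series 18 the percentage of counts in no feature was 27.5% to 31.1% in YAC128 aCSF. It was 17.5% to 24.2% in the series 18 libraries of both AON groups, without overlap. In that series the treatment and this percentage cannot be told apart. Within series 18 and series 19, Lyz2 had log2 fold changes of 1.46 (adjusted p = 0.0379) and 1.33 (adjusted p = 0.199) with AON12.1 against aCSF, and 1.23 and 1.39 with the scrambled AON against aCSF (adjusted p = 0.207 and 0.114). Tyrobp had 0.99 (adjusted p = 0.0170) and 0.73 (adjusted p = 0.247) with AON12.1, and 0.47 and 0.70 with the scrambled AON (adjusted p = 0.361 and 0.443). Cd52 with AON12.1 had 2.14 (adjusted p = 0.0333) and 1.22 (adjusted p = 0.398). The direction of these 3 genes held within both series. Fcer1g had 0.81 (adjusted p = 0.0262) and 0.39 (adjusted p = 0.642) with AON12.1 against aCSF. Fth1 turned, with 0.61 in series 18 (adjusted p = 0.0430, called) and -0.14 in series 19 (adjusted p = 0.869). In series 19 alone none of the 9 genes was called in any comparison. Over all genes, AON12.1 against aCSF called 276 of 10941 in series 18 and 2 of 11009 in series 19. Series 18 held 11 libraries and series 19 held 21.

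Homeostatic microglia markers were read beside these genes. Of 18 such markers 14 were tested, and in either comparison with aCSF 9 of the 14 had a higher value. Their median log2 fold change was 0.13 with AON12.1 and 0.11 with the scrambled AON. Only Laptm5, a lysosomal membrane protein of immune cells, rose (0.57 ± 0.12, adjusted p = 0.0206, AON12.1 against aCSF), at 85.3 ± 16.3 CPM with AON12.1 against 57.0 ± 15.2 CPM in YAC128 aCSF. In that comparison 4 of the 14 had an unadjusted p under 0.05, all higher: Laptm5, Fcrls (0.76 ± 0.23, adjusted p = 0.132), Csf1r, the receptor microglia need to survive (0.29 ± 0.09, adjusted p = 0.162), and Ly86 (0.58 ± 0.25, adjusted p = 0.343). With the scrambled AON Fcrls had 0.79 ± 0.23 and Laptm5 0.45 ± 0.13 (adjusted p = 0.242 each). With AON12.1 P2ry12, the purine receptor that marks resting microglia, had -0.18 ± 0.19 (adjusted p = 0.769), and Cx3cr1, the fractalkine receptor, had 0.11 ± 0.19 (adjusted p = 0.881). The 18 markers summed to 558 to 757 CPM per library under AON12.1, 537 to 603 CPM under the scrambled AON, 418 to 614 CPM in YAC128 aCSF and 488 to 631 CPM in WT.

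Each gene was also divided by that sum within its library, an alternative chosen after seeing the data. On the log2 scale the Lyz2 ratio averaged -4.30 ± 0.19 with AON12.1 and -4.27 ± 0.44 with the scrambled AON, against -5.46 ± 0.54 in YAC128 aCSF (SD, n = 8 each), differences of 1.15 and 1.18. All 8 AON12.1 libraries and 7 of 8 scrambled libraries lay above the highest YAC128 aCSF library. The Tyrobp ratio differed by 0.53 with AON12.1 and 0.48 with the scrambled AON, with 5 of 8 libraries of each above the highest YAC128 aCSF library. For Cd52 the difference was 1.38 with AON12.1, with 6 of 8 libraries above, and 0.88 with the scrambled AON, with 2 of 8 above. With AON12.1 and the scrambled AON against aCSF, in that order, Fcer1g differed by 0.26 and 0.29, Trem2 by 0.19 and 0.50, Cd68 by 0.32 and 0.21, and Ctss by -0.01 and 0.01. Apoe, at -0.18 and -0.06, and Fth1, at -0.14 with AON12.1, turned below 0 on this scale. Against WT the Trem2 ratio differed by 0.53 with the scrambled AON and 0.21 with AON12.1. The Apoe ratio differed from WT by -0.30 with AON12.1 and -0.18 with the scrambled AON. Exact permutation tests of these ratios were run, 54 in all over the chosen genes. Their p-values are left out, because the genes and this alternative were chosen with the data known, so the ratios are descriptions only.

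**Figure D3:**
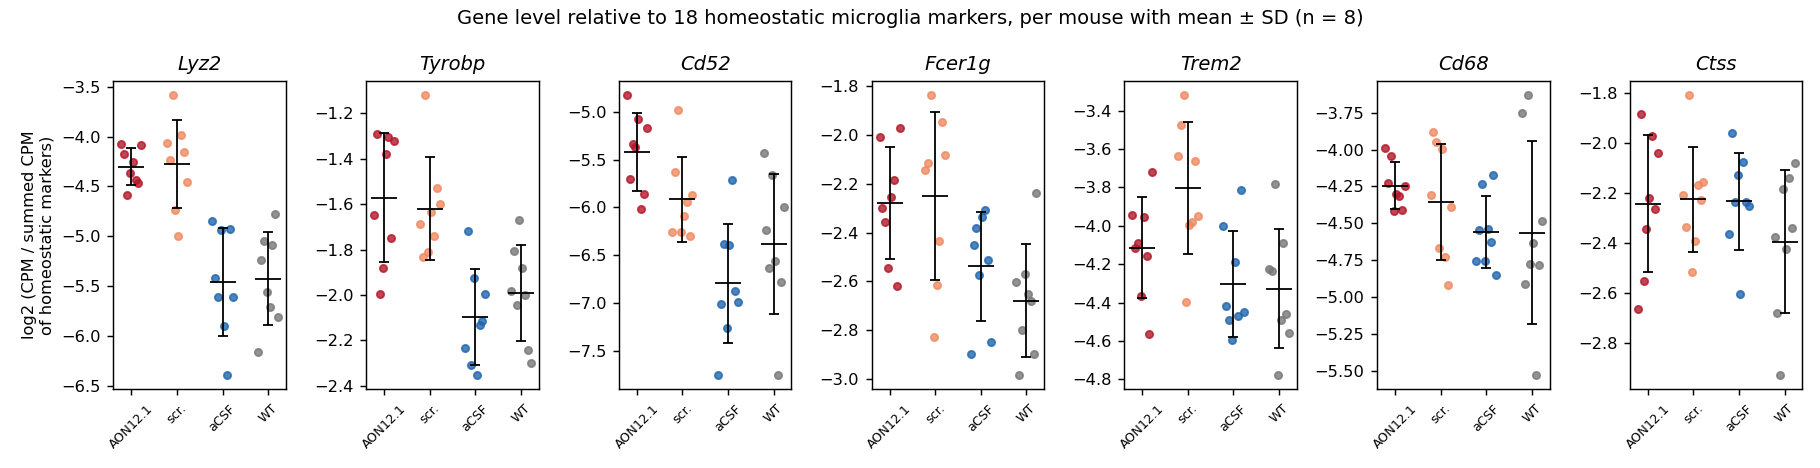
Log2 of each gene's CPM divided by the summed CPM of 18 homeostatic microglia markers in the same library (points), with the group mean ± SD (n = 8). Lyz2 averages -4.30 with AON12.1 and -4.27 with the scrambled AON, against -5.46 in YAC128 aCSF, while the Ctss groups overlap.

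Other genes of the disease-associated state were read from a list of 24. Of its genes 15 were tested, and in either comparison with aCSF 0 were called by edgeR, DESeq2 or voom, with medians of 0.09 for AON12.1 and 0.07 for the scrambled AON. An unadjusted edgeR p under 0.05 was seen for 4 of the 15 with AON12.1 and 2 of the 15 with the scrambled AON, and DESeq2 gave 7 of them no adjusted p in each. The untested ones were Spp1, Itgax, Clec7a, Gpnmb, Ccl3, Ccl4, Ccl6, Lgals3 and Ch25h. Among them are defining genes of the late state, with 18 counts in all libraries for the integrin Itgax and 34 for the lectin receptor Clec7a. B2m, the light chain of MHC class I, rose with AON12.1 against WT (0.68 ± 0.15, adjusted p = 0.0209), at 107 CPM on average with AON12.1 against 65.9 CPM in WT, though voom called 0 of the 15 in that comparison. It had 0.36 ± 0.15 against YAC128 aCSF (adjusted p = 0.334). Of 16 TREM2 and activation-motif signalling genes 5 were tested and none was called in any comparison by edgeR, DESeq2 or voom, with at most 1 at an unadjusted edgeR p under 0.05. The genes of this list with the smallest p were Cbl (0.33 ± 0.14, AON12.1 against WT), Pik3r1 (0.44 ± 0.21, scrambled against WT) and Inpp5d (0.35 ± 0.22, YAC128 against WT). Of 8 further Fc receptor genes 2 were tested and neither was called. Fcgr3, a low-affinity IgG receptor that pairs with the gamma chain, had 0.70 ± 0.17 with AON12.1 against aCSF (adjusted p = 0.0622) and 0.49 ± 0.17 with the scrambled AON (adjusted p = 0.338). Fcgrt, the neonatal Fc receptor, had -0.12 ± 0.19 and -0.15 ± 0.19 in the same comparisons (adjusted p = 0.875 and 0.826).

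Of 19 lysosomal proteases, inhibitors and partners, 16 were tested. Cst3, cystatin C, rose with AON12.1 against aCSF (0.42 ± 0.09, adjusted p = 0.0206), at 5849 ± 864 CPM with AON12.1 against 4370 ± 464 CPM in YAC128 aCSF. Grn, the progranulin precursor, rose with the scrambled AON against WT (0.45 ± 0.10, adjusted p = 0.0444), though voom called 0 of the 16 in that comparison. In the lipoprotein list, 18 of 19 genes tested, Apod, apolipoprotein D, rose with AON12.1 against aCSF (0.55 ± 0.11, adjusted p = 0.00825) and against WT (0.69 ± 0.11, adjusted p = 0.000539). In the iron list, 10 of 16 tested, Trf, transferrin, rose with AON12.1 against the scrambled AON (0.55 ± 0.12, adjusted p = 0.0309). Astrocytes or oligodendrocytes also make Cst3, Apod and Trf.

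Complement genes, 7 of 12 tested, had medians of 0.40 with AON12.1 and 0.44 with the scrambled AON against aCSF. C1qb, a chain of the C1q recognition complex that microglia make, rose with the scrambled AON against aCSF (0.58 ± 0.11, adjusted p = 0.0182) and had 0.46 ± 0.11 with AON12.1 (adjusted p = 0.0531). C1qa, another chain of the complex, rose with the scrambled AON (0.62 ± 0.12, adjusted p = 0.0190) and had 0.28 ± 0.12 with AON12.1 (adjusted p = 0.373). C4b, the classical-pathway component, rose with AON12.1 against aCSF (1.64 ± 0.16, adjusted p = 3.2e-09) and had 0.44 ± 0.17 with the scrambled AON (adjusted p = 0.373). It also rose with AON12.1 against the scrambled AON (1.19 ± 0.15, adjusted p = 6.67e-06), where the 10 genes showed no call. The level of C4b is uncertain, because reads may also match C4a, its near copy.

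**Figure D4:**
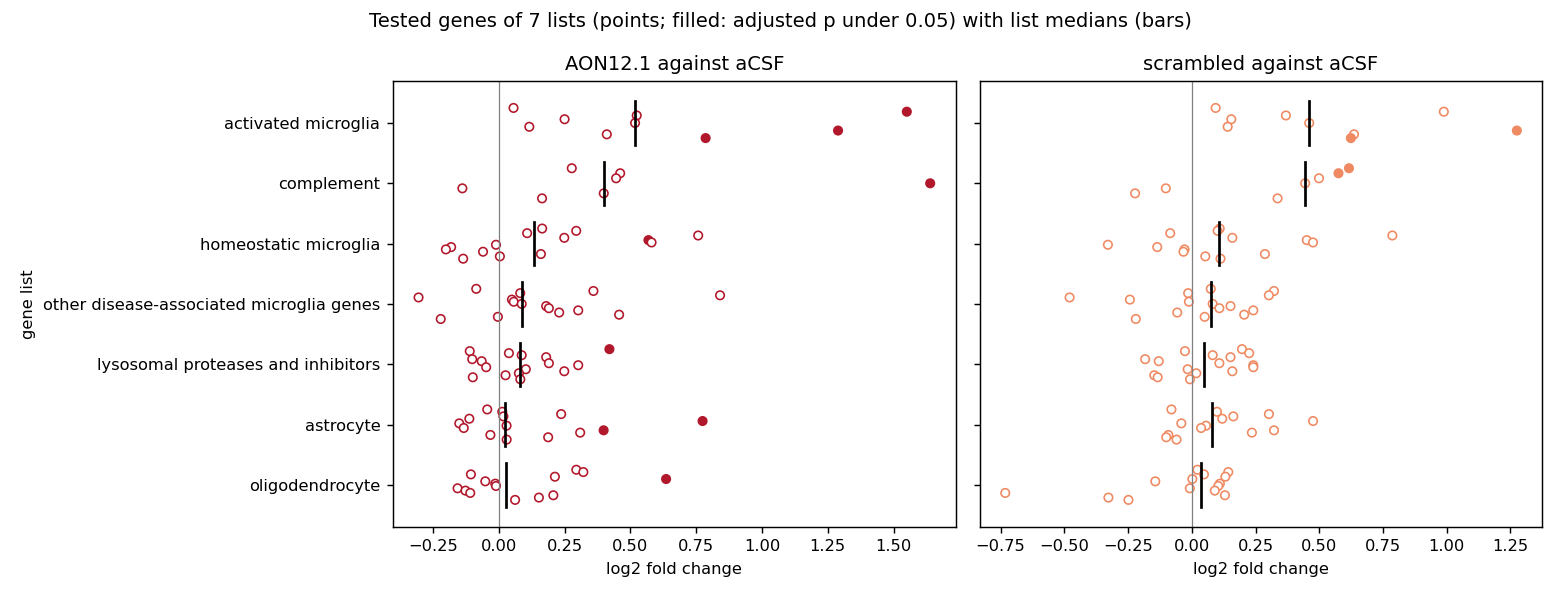
Log2 fold changes of the tested genes of 7 lists (points, filled where the adjusted p was under 0.05) with the list median (bars), AON12.1 against aCSF on the left and scrambled against aCSF on the right. The median of the activated microglia genes is 0.52 on the left and 0.46 on the right, that of homeostatic microglia 0.13 and 0.11.

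Markers of other cells that make some of the same genes were read as well. The 10 monocyte and neutrophil markers, among them Ccr2 and S100a8, were all below the filter, and their sum was at most 8.03 CPM in any AON12.1 library, 4.24 CPM with the scrambled AON, 2.84 CPM in YAC128 aCSF and 7.04 CPM in WT. Of 10 border macrophage markers 1 was tested, Stab1 (-0.23 ± 0.27, AON12.1 against aCSF), and the 10 summed to 20.2 ± 4.94 CPM with AON12.1, 20.6 ± 8.34 CPM with the scrambled AON, 28.2 ± 8.82 CPM in YAC128 aCSF and 18.4 ± 4.55 CPM in WT (SD, n = 8 each). Of 14 astrocyte markers 2 rose with AON12.1 against aCSF, Gfap, the filament protein of reactive astrocytes (0.77 ± 0.18, adjusted p = 0.0410), and S100b (0.40 ± 0.09, adjusted p = 0.0402). There voom called 1 of the 14 and DESeq2 called 3. S100b also rose against WT, with AON12.1 (0.49 ± 0.09, adjusted p = 0.00479) and with the scrambled AON (0.41 ± 0.09, adjusted p = 0.0498). In scrambled against WT voom called 0 of the 14. The sum of the astrocyte markers was 4046 to 4762 CPM with AON12.1, 4234 to 4889 CPM with the scrambled AON, 3789 to 4217 CPM in YAC128 aCSF and 4233 to 5159 CPM in WT. Its part in the levels of Apoe was not tested. Of 14 oligodendrocyte markers 1 rose with AON12.1 against aCSF, Gsn, the actin-severing protein gelsolin (0.64 ± 0.13, adjusted p = 0.00937). Mobp, a myelin protein gene, fell with AON12.1 against WT (-0.61 ± 0.12, adjusted p = 0.00783). Qdpr fell with the scrambled AON against WT (-0.65 ± 0.09, adjusted p = 3.97e-05) and rose with AON12.1 against the scrambled AON (0.48 ± 0.09, adjusted p = 0.00892). Of the 12 striatal projection neuron markers, Adora2a (-0.83 ± 0.18) and Penk (-0.76 ± 0.16) fell in YAC128 against WT (edgeR adjusted p = 0.0495 each). DESeq2 and voom each called 1 of the 12 in that comparison. With AON12.1 against the scrambled AON, 12 of 12 markers had a higher value (median 0.40). Of these, 0 were called by edgeR, DESeq2 or voom and 7 had an unadjusted edgeR p under 0.05. The 12 markers summed to 5944 to 10722 CPM with AON12.1, 3276 to 7553 CPM with the scrambled AON, 3471 to 6950 CPM in YAC128 aCSF and 5121 to 11072 CPM in WT. None of the tested markers of lymphocytes (2 of 9), red blood cells (4 of 5), choroid plexus (4 of 9) or endothelial and mural cells (9 of 9) was called by edgeR, DESeq2 or voom in any comparison. At an unadjusted edgeR p under 0.05 there were at most 3 choroid plexus markers and 1 endothelial or mural marker in a comparison, and 0 of the other two lists. Those with the smallest p were Ttr (-4.12 ± 0.91, scrambled against aCSF, adjusted p = 0.0599, with the YAC128 aCSF library that stood apart in the fit), Prlr and Enpp2 in choroid plexus, Flt1, Ly6c1 and Pdgfrb in endothelial and mural cells, Ighm and Cd4 in lymphocytes, and Hbb-bs, Hba-a2 and Hba-a1 in red blood cells.

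Between mice of the same group the genes varied together to unequal degrees. With group means subtracted, Pearson's r over 32 libraries was 0.67 for Tyrobp with Ctss, 0.64 for Lyz2 with Trem2, 0.58 for Apoe with Fth1 and 0.55 for Ctss with Fcer1g. For Lyz2 with Cd52, 2 of the genes that rose with AON12.1, it was -0.22. Over the 36 pairs the values ran from there up to 0.67, and all pairs share library depth and composition. Among 7520 genes averaging at least 20 CPM, the genes most like the mean of the 7 tested genes other than Apoe and Fth1 were C1qb (r = 0.82), Stard10 (0.69), Srm (0.62) and Rps2 (0.61). Apoe was closest to Ubb (0.84), Clu (0.82) and Atp5g1 (0.73), and Fth1 to Higd2a (0.76), Cox6a1 (0.75) and mt-Nd1 (0.74).

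**Figure D5:**
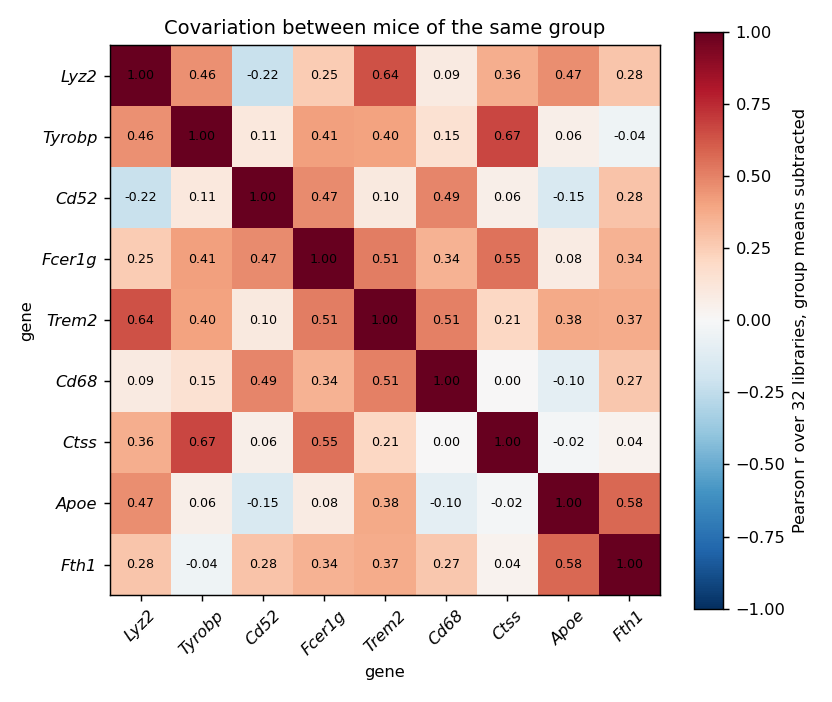
Pearson's r between the log2 CPM of each pair of the 9 tested genes over 32 libraries after subtracting group means, in colour and as numbers. Tyrobp with Ctss (0.67) and Lyz2 with Trem2 (0.64) are the highest pairs, and Lyz2 with Cd52 (-0.22) is the lowest.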

How the data were processed

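Per the labels' protocols, cDNA was made from 100 ng of striatal RNA per mouse by a modified mcSCRB-seq method, whose oligo-dT primer holds a sample barcode and a molecular identifier, so that counts come from the 3′ part of transcripts. Per the submitters' processing notes, the tools were FastQC, cutadapt 2.10, STAR 2.7.5a and HTSeq 0.12.4, on GRCm39. The sources used here do not say whether molecular identifiers were collapsed. The authors deposited raw counts, 1 table a library, of 55415 features and 5 summary lines. Library sizes leave those lines out. One of them, the counts in no feature, made up 16.3% to 33.7% of a file. Names came from GENCODE vM21 and covered 99.8% of the counts. Total gene counts ran from 658934 to 1419313 per library, which limits the precision of genes with few counts.

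Counts were fitted in R 4.3.3 with edgeR 4.0.16 (TMM, quasi-likelihood), all 32 libraries in 1 fit with 1 coefficient per group. The filter was filterByExpr at its minimum count of 10, which left 10679 genes. Log2 fold changes are ± SE of that fit, and levels are TMM-normalised CPM computed from the counts. Calls use an adjusted p under 0.05, Benjamini-Hochberg over all tested genes. The script was tested on simulated data. Cst7, below the filter, got an exact permutation test. Alternatives were DESeq2 1.42.0, voom (limma 3.58.1), RLE factors, other filters, covariates and subsets of libraries. The 10 genes, the 17 gene lists beside them and the tests were chosen with earlier results of these data known. From each list the text names genes called in any comparison, or otherwise up to 3 with the smallest p, and some that are not called are given beside them after their values were seen. Genes of like pattern were ranked by r over 32 libraries. One of them is not reported here.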

Additional observations from a re-analysis of the deposited data

Results flagged for a closer look

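In 4 of the 40 sets of 8 libraries, formed by 10 genes and 4 groups, 1 library lay far from the rest of its group, with a gap to its neighbour past Dixon's 95% critical value for that group size. Chance flags about 1 in 20 such sets. Scrambled replicate 3 was the highest of its group for 3 genes: Tyrobp at 261 CPM, with the next at 192 CPM, Cd52 at 17.9 CPM, with the next at 12.0 CPM, and Ctss at 162 CPM, with the next at 125 CPM. Without that library Tyrobp had a log2 fold change of 0.54 with the scrambled AON against aCSF (adjusted p = 0.103), and 0.62 with it (adjusted p = 0.0443). YAC128 aCSF replicate 5 was the lowest of its group for Ctss, at 75.0 CPM, with the next at 105 CPM.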

How the results depend on the processing

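None of the 8 calls changed sign in any alternative fit of the counts that tested it, and 14 of 54 values did, all uncalled. The Cd52 call with AON12.1 against aCSF could be checked in 8 alternatives, where that of Tyrobp was checked in 11. Cd52 did not pass the stricter filter or the filter with only those groups in the fit, and DESeq2 gave it no adjusted p. Fcer1g was called with AON12.1 against aCSF in DESeq2 (adjusted p = 0.0201) and among animals numbered from 18 (0.0262), and against WT in DESeq2, with the stricter filter and with the no-feature share (0.0275, 0.0493 and 0.0267). Of the 10 genes, 0 were called under every alternative for AON12.1 against scrambled and for YAC128 against WT. Using the animals numbered from 18 alone, AON12.1 against aCSF called 5, scrambled against aCSF 0, AON12.1 against WT 0 and scrambled against WT 0. Over all genes that fit called 276, 1, 3 and 3 of 10941 in the same order. With all libraries these counts were 33, 9, 60 and 18 of 10679. With the animals numbered from 19 alone, each of these 4 comparisons called 0, where 2, 1, 26 and 4 of 11009 tested genes were called. Series 19 held 21 libraries and series 18 held 11, of 32 in all. Scrambled against aCSF, with 2 calls in all libraries, called 1 each in DESeq2, with the stricter filter, with the no-feature share as covariate, with the number series as covariate and without both libraries that stand apart. AON12.1 against WT called 1 with only those groups in the fit, and scrambled against WT 0 in DESeq2. DESeq2 gave Lyz2 no adjusted p in scrambled against aCSF, scrambled against WT or AON12.1 against aCSF, and Cd52 none in any comparison, with log2 fold changes of 1.28, 1.16 and 1.30 for Lyz2 and 1.57 for Cd52 with AON12.1 against aCSF. There its 2 calls were Tyrobp and Fcer1g. Over all genes, leaving out 1 library gave 26 to 73 calls for AON12.1 against aCSF, 3 to 13 for scrambled against aCSF, 10 to 17 for AON12.1 against scrambled, 3 to 142 for YAC128 against WT, 49 to 97 for AON12.1 against WT and 10 to 27 for scrambled against WT, and DESeq2 called 94, 20, 20, 54, 106 and 33. For the 10 genes, leaving out 1 library at a time gave 3 to 4 calls for AON12.1 against aCSF, 1 to 2 for scrambled against aCSF, 1 to 4 for AON12.1 against WT, 1 to 1 for scrambled against WT, and 0 to 0 for the others. No paired analysis was possible because the labels carry no replicate numbers shared between groups. Depth limits Cst7 and Cd52 most, with 32 and 276 counts in all.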
